A study of Mus musculus with 10 samples.

Results

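Macrophage identity in RAW264.7 cells was followed through 45 genes, chosen by name from the 22186 genes of a table of messenger RNA levels and all found in it. They comprised 5 transcription factor genes, 3 receptors for colony-stimulating factors, 10 genes used as general macrophage markers, 7 Fc receptor and adaptor genes, 5 complement genes, 5 scavenger and clearance receptors, 4 C-type lectins, and 6 integrins and chemokine receptors. RAW264.7 is a mouse macrophage-like line grown from a virus-induced tumour, labelled as wild type in genotype. The doxorubicin group had 5 libraries of cells kept for 24 h in medium with doxorubicin, an anthracycline and topoisomerase II poison. The medium group had 5 libraries of the same line kept for 24 h in medium alone. The dose is uncertain, since the titles named 10 nM, the design text 100 nM (with a remark that this figure is the one meant), and the protocol a dilution of 0.001% by volume from a 100 mM stock in dimethyl sulfoxide, which works out at 1000 nM. The labels named no solvent for the medium group. All libraries came from 1 transformed line. Whether the 5 libraries of a group stem from different cultures is not stated, and a p-value here speaks only for the spread among these libraries, which may be technical.

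Macrophages arise from myeloid precursors under the transcription factor PU.1 (Spi1), which works with C/EBP, IRF and Runx factors, and they depend on signals through the CSF-1 receptor. Their surface carries receptors for antibody-coated, complement-coated, oxidized or dying material and for microbial sugars. Many of these receptors have no signalling part of their own and act through DAP12 (Tyrobp) or the Fc receptor gamma chain (Fcer1g), adaptors with an immunoreceptor tyrosine-based activation motif (ITAM) that recruit the kinase Syk. The series title names the senescence-associated secretory phenotype as its question, and the design has 1 comparison, doxorubicin against medium.

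Values were FPKM (fragments per kilobase of transcript per 1000000 mapped fragments), which allow for transcript length. Even so, 77 cytosolic ribosomal protein genes had a median of only 5.79 FPKM. Orders, ranks and shares across genes below therefore describe the listed values and may not follow transcript abundance. The sum over genes was 338293 to 356111 FPKM in a library, with 8207 to 9125 genes listed at 0. The titles number the libraries of each group 1 to 5, and libraries of equal number deviated together from their group means. The pair with number 1 stood apart from the other 8. Across all genes tested, deviations also correlated between numbers 2 and 3 and between numbers 4 and 5. A change was tested with limma on log2(FPKM + 1) over the 9869 genes that averaged 1 FPKM or more, at a Benjamini-Hochberg adjusted p under 0.05, with the group as the only term and, beside it, with the replicate number as a block. The fold change of a gene is the same in both fits, and only its error differs. Where a change is called below, the block fit called it.

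In medium the 45 genes ran from 0.0255 FPKM (Axl) to 1396 FPKM (Gpnmb). In that group 13 averaged at least 100 FPKM (28.9% of the members, against 2.60% of all genes), 15 lay from 10 to under 100 FPKM, 9 from 1 to under 10 FPKM, and 8 below 1 FPKM. Gpnmb, which encodes a glycoprotein of lysosome-related membranes, was the highest member and rank 15 of all genes in medium. Lgals3 (galectin-3), Lyz2 (lysozyme), Cd68 (macrosialin, a lysosomal glycoprotein) and Tyrobp came next, with medium means of 645, 471, 463 and 396 FPKM. The medium ranges of Lyz2 and Cd68 overlapped, as did those of Cd68 and Tyrobp, so their order is within the spread. Those of Gpnmb and Lgals3 did not overlap, and neither did those of Lgals3 and Lyz2. Over all 45, the summed level was 1.58% to 1.93% of a library's FPKM with doxorubicin and 1.41% to 1.92% in medium.

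**Figure D1:**
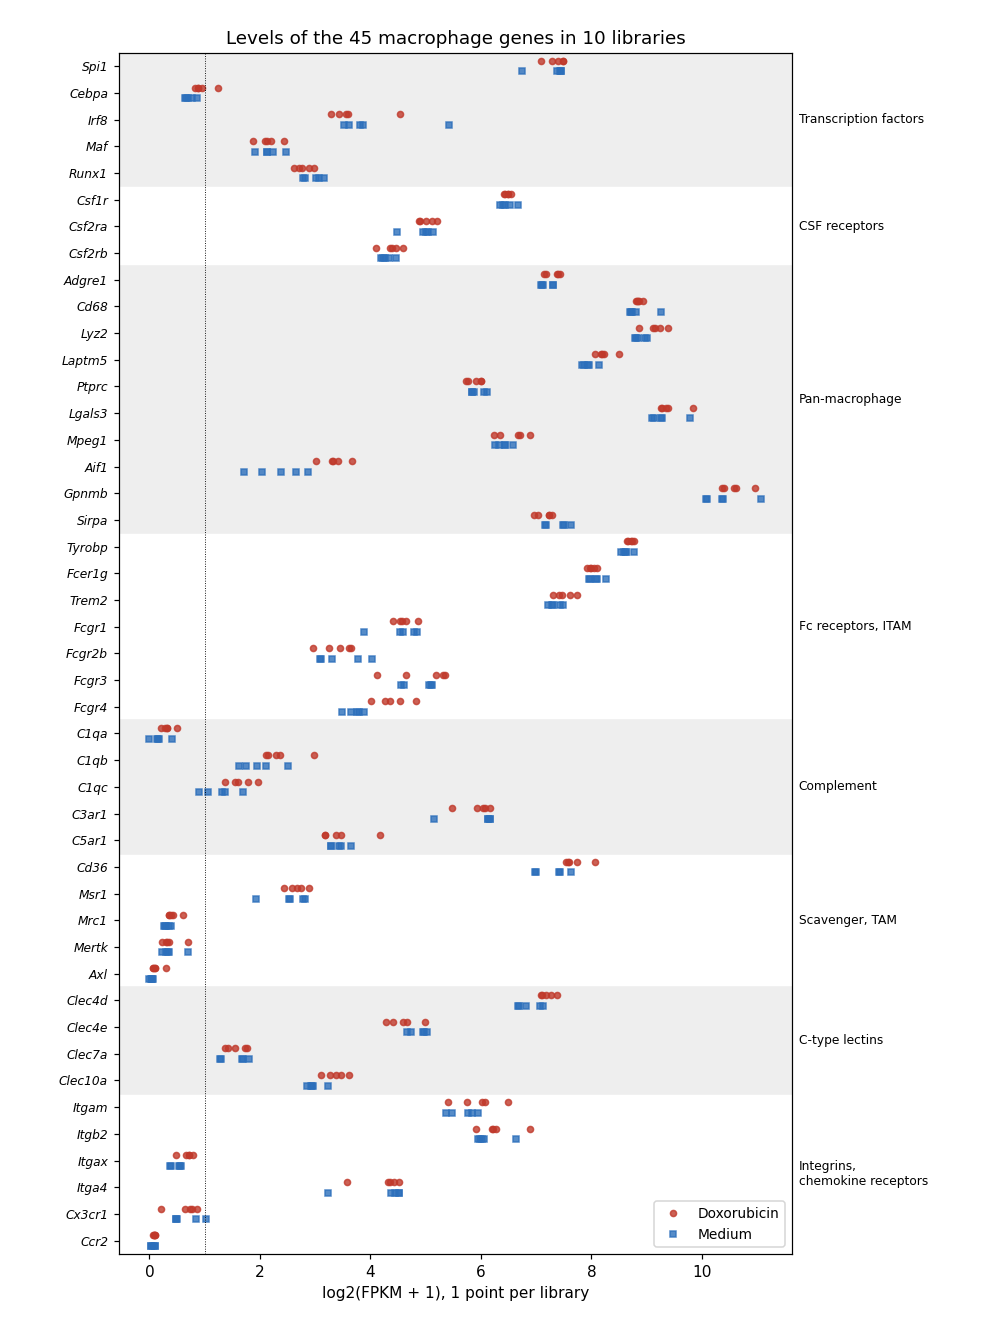
Levels of the 45 genes on the log2(FPKM + 1) scale, 1 point per library, doxorubicin (red circles, upper) and medium (blue squares, lower) for each gene, grouped by role. The dotted line marks 1 FPKM, and 8 genes have a mean below it.

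The low members were Cebpa, C1qa, Mrc1, Mertk, Axl, Itgax, Cx3cr1 and Ccr2, and they were not tested. Cebpa encodes a bZIP factor of myeloid commitment, Mrc1 the mannose receptor, Itgax the integrin chain CD11c, Mertk and Axl receptor kinases for dying cells, and Cx3cr1 and Ccr2 chemokine receptors. Their group means ran from 0.0616 (Ccr2) to 0.949 FPKM (Cebpa) with doxorubicin, against 0.0255 (Axl) to 0.659 FPKM (Cebpa) in medium. No member was at 0 in every library. With no filter on low values, 0 of the 45 passed the threshold without the block, where 92 of 15731 genes did. A low FPKM in this table does not show that a gene is silent, since 77 cytosolic ribosomal protein genes, which every cell uses, had a median of only 5.79 FPKM.

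Most differences between cells kept with doxorubicin and cells in medium were small. Aif1 was about 2-fold higher with doxorubicin (log2 fold change 1.02) and Fcgr4 came next (0.68), while the other members tested lay between -0.37 (Irf8) and 0.41 (Cd36). These are fold changes of FPKM + 1, which understate changes of genes near 1 FPKM, such as C1qc. Of the 37 members tested, 0 passed the threshold without the block, where 0.912% of all genes did (0.689% higher and 0.223% lower). At an unadjusted p under 0.05, 8 members were higher and 1 lower, where 6.62% and 11.2% of all genes were. The exact permutation test called 0 (its smallest p with 5 against 5 libraries, 0.00794, gave adjusted values no lower than 0.118). With the block, 10 rose and 2 fell, which is 27.0% and 5.41% of the members against 7.81% and 13.7% of all genes. The 10 were Aif1, Fcgr4, Cd36, C1qb, C1qc, Clec10a, Clec4d, Laptm5, Lyz2 and Itgam, and the 2 were Irf8 and Clec4e. The median log2 fold change was 0.082 over the members and -0.026 over all genes tested, and 27 of the 37 had a positive value (73.0%, against 43.2% of all genes). In 5 of 5 replicate numbers, 13 members were higher and 3 lower with doxorubicin (35.1% and 8.11%), where 13.2% and 23.1% of all genes were. These are bulk RNA values, so fewer cells of a kind and less RNA per cell cannot be told apart.

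The blocked calls rest on pairing by number. For the members, numbers 2 and 3 differed by a median of 0.18 on the log2(FPKM + 1) scale with doxorubicin and 0.044 in medium, and numbers 4 and 5 by 0.067 and 0.045. The means of numbers 2 with 3 and 4 with 5 lay 0.17 apart with doxorubicin and 0.21 in medium. Averaging 2 libraries shrinks such a distance, so it cannot be set directly against that between 2 single libraries. Over all genes tested, doxorubicin 2 and 3 differed by a median of 0.082, and the means of the 2 pairs by 0.11. A block of 3 sets (1, 2 with 3, 4 with 5), added after the data were seen, called 15 members higher and 4 lower, all 12 among them, where 12.2% and 19.9% of all genes were called. It added Gpnmb, Lgals3, Mpeg1, Trem2 and Itgb2 as higher and Runx1 and Sirpa as lower. With both number 1 libraries left out, the block fit called 15 higher and 3 lower, again with all 12, beside 10.2% and 18.4% of all genes. That fit added Gpnmb, Lgals3, Adgre1, Trem2 and Tyrobp as higher and C5ar1 as lower. Without the block and without those libraries 4 members passed (Aif1, Fcgr4, Laptm5 and Clec10a), beside 5.63% of all genes. Library weights called 15, beside 37.3%.

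**Figure D2:**
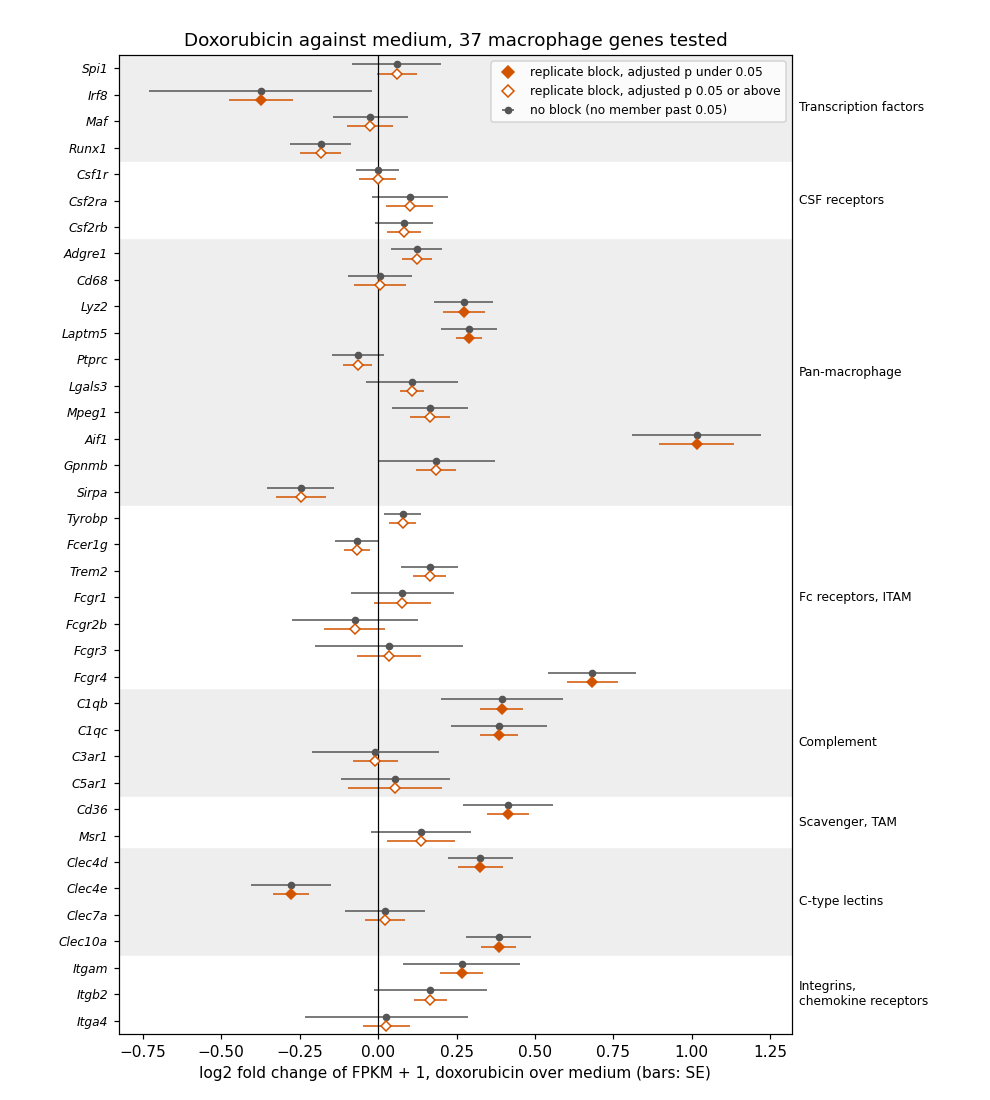
Log2 fold change of FPKM + 1, doxorubicin over medium, for the 37 members tested, grouped by role. Grey circles show the fit without the block and orange diamonds the fit with it (filled where the adjusted p is under 0.05), with bars of 1 SE. The 12 filled diamonds are 10 positive and 2 negative, and Aif1 and Fcgr4 lie farthest to the right.

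PU.1 acts on many myeloid promoters, so the letters of its core were sought in the members' promoters. Those of Aif1 and Fcgr4, the largest differences, and of the C1q chain genes C1qb and C1qc, which rose together, are printed here. Sequences are RefSeq windows on build GRCm38.p6, an earlier build than that of the files, from 250 bases before to 50 after the gene start, on the strand of the gene. The core GAGGAA was searched on both strands (TTCCTC on the other), and so was the longer GAGGAAGT, which contains it. Capitals mark the matches.
Aif1, chr17:35176003-35176302, minus strand: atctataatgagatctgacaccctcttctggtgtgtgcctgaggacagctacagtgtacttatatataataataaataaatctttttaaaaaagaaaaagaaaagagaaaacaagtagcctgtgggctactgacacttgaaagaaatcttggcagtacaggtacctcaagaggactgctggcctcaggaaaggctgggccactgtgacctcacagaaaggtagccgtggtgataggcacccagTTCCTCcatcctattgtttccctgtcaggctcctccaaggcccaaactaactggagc
Fcgr4, chr1:171018676-171018975, plus strand: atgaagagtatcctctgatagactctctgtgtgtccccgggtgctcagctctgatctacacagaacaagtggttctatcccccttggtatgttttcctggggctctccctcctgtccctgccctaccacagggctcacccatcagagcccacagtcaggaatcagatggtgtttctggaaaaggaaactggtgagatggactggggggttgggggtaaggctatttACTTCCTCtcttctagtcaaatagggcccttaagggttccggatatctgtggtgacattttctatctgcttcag
C1qb, chr4:136886151-136886450, minus strand: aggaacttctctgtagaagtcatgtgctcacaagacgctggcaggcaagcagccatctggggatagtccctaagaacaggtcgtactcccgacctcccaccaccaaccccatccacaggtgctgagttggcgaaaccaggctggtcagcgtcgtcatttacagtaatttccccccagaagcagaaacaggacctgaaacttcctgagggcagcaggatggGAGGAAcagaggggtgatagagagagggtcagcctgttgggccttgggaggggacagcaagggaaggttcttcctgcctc
C1qc, chr4:136892865-136893164, minus strand: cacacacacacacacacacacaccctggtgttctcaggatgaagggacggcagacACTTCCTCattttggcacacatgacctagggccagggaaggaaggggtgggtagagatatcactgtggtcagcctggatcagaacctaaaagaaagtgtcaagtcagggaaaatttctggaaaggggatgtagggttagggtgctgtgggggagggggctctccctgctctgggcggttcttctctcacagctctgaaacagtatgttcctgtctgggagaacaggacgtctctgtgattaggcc
Each window held 1 core match, starting 7 bases before the gene start in Aif1, 22 in Fcgr4, 30 in C1qb and 193 in C1qc. Those of Fcgr4 and C1qc were the longer form. Of the 34 members with a window, 18 held the core in at least 1 window (52.9%), against 31.3% of 27025 genes with a window and 30.3% of the 8045 of them tested here. The longer form was in 2 of the 34 members, both printed here, against 3.69% of all genes with a window. Among the other members called with the block, Laptm5, Clec4d, Clec4e and Itgam also held the core. Cd36, Lyz2 and Irf8 had a window without it, and Clec10a had no window. On the log2(FPKM + 1) scale Cd36 (0.41) differed more than C1qb and C1qc (0.39 each). A match is a string of letters and was not shown to be a binding site.

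Of 4 transcription factor genes tested, Irf8 fell with the block, and Spi1, Runx1 and Maf did not pass. Spi1 was at 134, 179, 177, 156 and 168 FPKM in doxorubicin libraries 1 to 5, against 106, 174, 173, 166 and 171 FPKM in medium libraries 1 to 5 (log2 fold change 0.059, SE 0.14 without the block and 0.063 with it, adjusted p = 0.874 without and 0.520 with the block). The groups overlapped, and the number 1 library was the lowest of each. Irf8 encodes an interferon regulatory factor that directs monocyte and dendritic cell fate. It stood at 22.1, 9.74, 8.70, 11.0 and 10.8 FPKM with doxorubicin and at 41.8, 10.5, 11.2, 13.6 and 13.1 FPKM in medium (log2 fold change -0.37, SE 0.36 without the block and 0.10 with it, adjusted p = 0.623 without and 0.0344 with the block). Number 1 lay far above the other libraries of each group, and the groups overlapped with or without it. Within each number doxorubicin was lower, by 0.89, 0.10, 0.34, 0.28 and 0.26 on the log2 scale for numbers 1 to 5. With 1 library left out, the log2 fold change was -0.032 without medium 1 and -0.59 without doxorubicin 1. Without both number 1 libraries it was -0.25, with adjusted p = 0.138 without the block and 0.00956 with it.

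Runx1, a factor of blood cell development, had 5.11, 5.74, 5.51, 6.87 and 6.38 FPKM with doxorubicin and 7.04, 5.84, 6.09, 7.41 and 7.99 FPKM in medium (log2 fold change -0.18, SE 0.10 without the block and 0.066 with it, adjusted p = 0.354 without and 0.0789 with the block). It was lower in 5 of 5 numbers but did not pass in either fit. It passed as lower with the block of 3 sets (adjusted p = 0.0333) and with library weights (0.0469). Maf, the c-Maf gene of mature macrophages, was at 3.47 ± 0.632 FPKM with doxorubicin and 3.54 ± 0.640 FPKM in medium (SD, n = 5 each; log2 fold change -0.025).

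The colony-stimulating factor receptors gave 0 of 3 calls in either fit. Csf1r, the receptor kinase on which macrophage survival depends, was at 89.0, 84.4, 91.9, 85.4 and 89.3 FPKM with doxorubicin and 101, 83.2, 80.7, 91.1 and 85.2 FPKM in medium, and all 5 doxorubicin values lay inside the medium range (log2 fold change -0.0015, SE 0.070 without the block and 0.058 with it, adjusted p = 0.994 without and 0.988 with the block). Csf2rb, the common beta chain of the GM-CSF, IL-3 and IL-5 receptors, was at 23.0, 16.2, 19.4, 20.0 and 21.1 FPKM with doxorubicin and 21.1, 17.3, 17.8, 19.2 and 18.2 FPKM in medium (log2 fold change 0.082, SE 0.092 without the block and 0.054 with it, adjusted p = 0.691 without and 0.292 with the block). The ranges overlapped. Its close copy Csf2rb2 can share reads with it, which makes the value of each uncertain. The GM-CSF receptor alpha chain gene Csf2ra was at 31.6 ± 3.09 FPKM with doxorubicin and 29.7 ± 4.95 FPKM in medium (SD, n = 5 each; log2 fold change 0.10).

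Of the 10 general markers, 3 rose with the block, 0 fell and 7 did not pass. Aif1, which encodes the actin-bundling protein IBA1, had the largest difference of all 37 members. It stood at 7.04, 8.85, 11.7, 9.07 and 9.65 FPKM in doxorubicin libraries 1 to 5, against 2.27, 6.31, 5.31, 3.09 and 4.18 FPKM in medium libraries 1 to 5. Every doxorubicin library lay above every medium library, as did 2.73% of all genes, while 3.97% were separated downward. The log2 fold change was 1.02 (SE 0.21 without and 0.12 with the block), with adjusted p = 0.0503 without the block, just outside the threshold, and 0.00222 with it. Within numbers 1 to 5 the difference was 1.30, 0.43, 1.01, 1.30 and 1.04, smallest for number 2. Without the block Aif1 passed when medium 1 was left out (adjusted p = 0.0334, with 2.29% of all genes called), when medium 2 was (0.0332, 0.578% called), and with median-centred libraries (0.0322, 1.07% called). It also passed without both number 1 libraries (0.0178, 5.63% called) and with library weights (0.000125, 37.3% called). With another library left out its adjusted p reached 0.150.

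Laptm5, a lysosomal membrane protein gene of blood cells, was at 362, 268, 289, 292 and 298 FPKM with doxorubicin and 279.5, 231, 226, 244 and 249 FPKM in medium (log2 fold change 0.29, SE 0.089 without the block and 0.042 with it, adjusted p = 0.136 without and 0.00445 with the block). The ranges overlapped only because medium 1 lay above doxorubicin 2. Lyz2 was at 667, 464, 569, 557 and 605 FPKM with doxorubicin and 459, 439.7, 446, 498 and 513 FPKM in medium (log2 fold change 0.27, SE 0.094 without the block and 0.066 with it, adjusted p = 0.174 without and 0.0235 with the block), overlapping across numbers but higher within each number, by 0.076 for number 2 and 0.54 for number 1. The near-identical gene Lyz1 can share its reads, so its value is uncertain.

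Gpnmb was at 1997, 1310.2, 1351, 1568 and 1525 FPKM with doxorubicin and 2160.0, 1086, 1075, 1333 and 1324 FPKM in medium (log2 fold change 0.19, SE 0.19 without the block and 0.064 with it, adjusted p = 0.647 without and 0.0698 with the block). The groups overlapped, with number 1 the highest of each. The log2 fold change was 0.090 without doxorubicin 1, 0.35 without medium 1, 0.11 without medium 2 and 0.10 without medium 3. In the block fit with both number 1 libraries left out, its log2 fold change was 0.26 (adjusted p = 0.00234), and Lgals3 (0.12, 0.0349) and Adgre1, the F4/80 gene (0.14, 0.0445), also passed there. With all libraries Lgals3 was at 693 ± 128 FPKM with doxorubicin and 645 ± 136 FPKM in medium and Adgre1 at 158 ± 14.9 FPKM with doxorubicin and 145 ± 11.4 FPKM in medium (SD, n = 5 each). Cd68, at 461 ± 15.7 FPKM with doxorubicin and 463 ± 82.3 FPKM in medium (SD, n = 5 each), had a log2 fold change of 0.0065, and its sign turned when all libraries were rescaled to the same sum.

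The remaining general markers did not pass in either fit. Mpeg1, the perforin-2 gene, was at 95.6 ± 17.8 FPKM with doxorubicin and 84.2 ± 7.27 FPKM in medium (SD, n = 5 each; log2 fold change 0.17), and it passed as higher with the block of 3 sets (adjusted p = 0.0393). Ptprc (CD45) was at 58.2 ± 5.37 FPKM with doxorubicin and 60.9 ± 5.52 FPKM in medium (SD, n = 5 each; -0.065). Sirpa encodes the inhibitory receptor for the self signal CD47, and it was at 142 ± 13.7 FPKM with doxorubicin and 169 ± 24.6 FPKM in medium (SD, n = 5 each; log2 fold change -0.25, adjusted p = 0.264 without and 0.0583 with the block). It passed as lower with the block of 3 sets (0.0274) and with library weights (0.0132).

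In the Fc receptor group, Fcgr4 alone of 7 passed with the block. Fcgr4 encodes an activating IgG receptor that signals through Fcer1g. It stood at 27.5, 15.0, 18.3, 19.4 and 22.2 FPKM in doxorubicin libraries 1 to 5, against 12.6, 10.2, 11.5, 12.9 and 13.8 FPKM in medium libraries 1 to 5. As with Aif1, the groups did not overlap, and these were the 2 members of which that was true. The log2 fold change was 0.68 (SE 0.14 without and 0.081 with the block), with adjusted p = 0.0532 without the block and 0.00229 with it. Within numbers 1 to 5 it differed by 1.07, 0.52, 0.62, 0.55 and 0.65. Without the block, Fcgr4 passed when medium 1 (0.0428) or doxorubicin 2 (0.0383, with 0.537% of all genes called) was left out. It also passed when all libraries were rescaled to the same sum (0.0482, with 0.932% called) and when they were median-centred (0.0313). The same held without both number 1 libraries (0.0273, 5.63% called) and with library weights (0.000704, 37.3% called). With another library left out its adjusted p reached 0.131.

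In the RefSeq gene order Fcgr4 lies between Fcgr2b, the inhibitory IgG receptor gene, and Fcgr3, an activating low-affinity receptor gene, neither of which passed. Fcgr2b was at 9.62 ± 1.97 FPKM with doxorubicin and 10.4 ± 3.49 FPKM in medium and Fcgr3 at 30.9 ± 10.3 FPKM with doxorubicin and 29.1 ± 5.61 FPKM in medium (SD, n = 5 each; log2 fold changes -0.075 and 0.035, adjusted p = 0.599 and 0.831 with the block). Both encode similar outer parts, so reads may have been split between them. The difference between the 3 receptors was not tested. Fcgr1, the high-affinity IgG receptor gene, was at 23.5 ± 2.93 FPKM with doxorubicin and 22.7 ± 5.43 FPKM in medium (SD, n = 5 each; 0.077).

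The adaptor genes Tyrobp and Fcer1g had high listed FPKM and did not pass in either fit. Tyrobp was at 419.7, 428, 437, 404 and 401 FPKM with doxorubicin and 436, 396, 395, 384 and 372 FPKM in medium, with overlapping ranges (log2 fold change 0.078, SE 0.059 without the block and 0.043 with it, adjusted p = 0.529 without and 0.220 with the block). In the block fit with both number 1 libraries left out, it passed as higher (0.11, adjusted p = 0.0477). Fcer1g was at 257 ± 12.6 FPKM with doxorubicin and 270.1 ± 23.2 FPKM in medium (SD, n = 5 each; log2 fold change -0.067). Trem2, a lipid receptor that signals through DAP12, was at 182 ± 22.4 FPKM with doxorubicin and 162 ± 12.5 FPKM in medium (SD, n = 5 each; log2 fold change 0.16, adjusted p = 0.0534 with the block and 0.00892 with it when both number 1 libraries were left out).

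Of 4 complement genes tested, the C1q chain genes C1qb and C1qc rose with the block, and the anaphylatoxin receptor genes C3ar1 and C5ar1 did not pass. C1q is the recognition molecule of the classical pathway, built from A, B and C chains. C1qb was at 6.92, 3.44, 4.14, 3.34 and 3.89 FPKM with doxorubicin and 4.67, 2.87, 3.31, 2.09 and 2.35 FPKM in medium (log2 fold change 0.39, SE 0.19 without the block and 0.069 with it, adjusted p = 0.319 without and 0.00855 with the block). Its log2 fold change was 0.24 without doxorubicin 1. C1qc was at 2.90, 2.04, 2.44, 1.58 and 1.94 FPKM with doxorubicin and 2.23, 1.49, 1.59, 0.873 and 1.08 FPKM in medium (log2 fold change 0.39, SE 0.15 without the block and 0.062 with it, adjusted p = 0.226 without and 0.00624 with the block). For both genes the ranges overlapped across numbers, but doxorubicin lay above medium within each number, and medium 4 and 5 were the lowest libraries. C1qa, the gene of the A chain, was listed at 0.156 to 0.409 FPKM with doxorubicin and 0 to 0.320 FPKM in medium, below 1 FPKM in every library.

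C3ar1 was at 43.6, 60.3, 70.5, 64.8 and 66.1 FPKM with doxorubicin and 34.6, 68.8, 70.3, 69.1 and 70.7 FPKM in medium (log2 fold change -0.0090, SE 0.20 without the block and 0.072 with it, adjusted p = 0.987 without and 0.939 with the block). Number 1 was the lowest library of each group, and the other 8 overlapped. C5ar1 was at 10.5 ± 3.73 FPKM with doxorubicin and 9.78 ± 1.16 FPKM in medium (SD, n = 5 each; log2 fold change 0.055, adjusted p = 0.817 with the block). It was higher with doxorubicin in number 1 (0.88) and lower in the other 4. Without both number 1 libraries it was called lower with the block (-0.15, adjusted p = 0.0476).

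Among the scavenger receptors, Cd36 rose with the block and Msr1 did not pass. Cd36, a class B receptor for oxidized lipoproteins and fatty acids, was at 265.27, 189, 212, 193 and 185 FPKM with doxorubicin and 196, 171, 169, 127 and 125 FPKM in medium (log2 fold change 0.41, SE 0.14 without the block and 0.068 with it, adjusted p = 0.175 without and 0.00660 with the block). The ranges overlapped, since medium 1 lay above doxorubicin 2, 4 and 5, and medium 4 and 5 were the lowest libraries. Within numbers 1 to 5 the difference was 0.43, 0.14, 0.33, 0.60 and 0.56, smallest for number 2. Msr1, the class A scavenger receptor gene, was at 5.35 ± 0.736 FPKM with doxorubicin and 4.88 ± 1.29 FPKM in medium (SD, n = 5 each; log2 fold change 0.14).

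Of 4 C-type lectin genes, Clec4d and Clec10a rose with the block, Clec4e fell and Clec7a did not pass. Clec4d and Clec4e, which encode dectin-3 and Mincle, are neighbours in the RefSeq gene order, and their products both sense mycobacterial glycolipid. Clec4d was at 166, 144, 153, 136 and 135 FPKM with doxorubicin and 112, 138, 134, 101 and 102 FPKM in medium (log2 fold change 0.33, SE 0.10 without the block and 0.072 with it, adjusted p = 0.149 without and 0.0179 with the block). Clec4e was at 30.7, 18.5, 20.3, 24.3 and 23.2 FPKM with doxorubicin and 31.7, 24.3, 25.5, 30.2 and 29.9 FPKM in medium (log2 fold change -0.28, SE 0.13 without the block and 0.058 with it, adjusted p = 0.288 without and 0.0150 with the block). Each overlapped between groups across numbers, yet Clec4d was higher and Clec4e lower within all 5 numbers.

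Clec10a, a lectin gene for galactose-type sugars and a marker of alternative activation, was at 11.3, 7.59, 10.1, 8.65 and 9.34 FPKM with doxorubicin and 8.36, 6.20, 6.78, 6.63 and 6.70 FPKM in medium (log2 fold change 0.38, SE 0.10 without the block and 0.055 with it, adjusted p = 0.115 without and 0.00399 with the block). The overlap came from medium 1, which lay above doxorubicin 2. Without the block Clec10a passed when medium 1 was left out (0.0419). It also passed without both number 1 libraries (0.0274, 5.63% of all genes called) and with library weights (0.000649, 37.3% called). Clec7a, the gene of the beta-glucan receptor dectin-1, was at 1.99 ± 0.375 FPKM with doxorubicin and 1.96 ± 0.495 FPKM in medium (SD, n = 5 each; log2 fold change 0.022).

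Of 3 integrin genes tested, Itgam rose with the block. Itgam and Itgb2 encode CD11b and CD18, the chains of complement receptor 3. Itgam was at 88.7, 41.3, 52.6, 63.6 and 66.3 FPKM with doxorubicin and 60.6, 40.4, 43.4, 53.1 and 56.3 FPKM in medium (log2 fold change 0.27, SE 0.19 without the block and 0.068 with it, adjusted p = 0.488 without and 0.0288 with the block). Its log2 fold change was 0.13 without doxorubicin 1 and 0.40 without doxorubicin 2. Itgb2 was at 117, 59.2, 73.2, 72.3 and 76.0 FPKM with doxorubicin and 97.9, 60.5, 62.4, 63.5 and 65.9 FPKM in medium (log2 fold change 0.17, SE 0.18 without the block and 0.052 with it, adjusted p = 0.674 without and 0.0524 with the block). For both, the groups overlapped, number 1 was the highest library of each group, and number 2 had nearly equal values with doxorubicin and in medium. Itga4, the CD49d gene, was at 18.4 ± 4.32 FPKM with doxorubicin and 18.5 ± 5.72 FPKM in medium (SD, n = 5 each; log2 fold change 0.026).

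**Figure D3:**
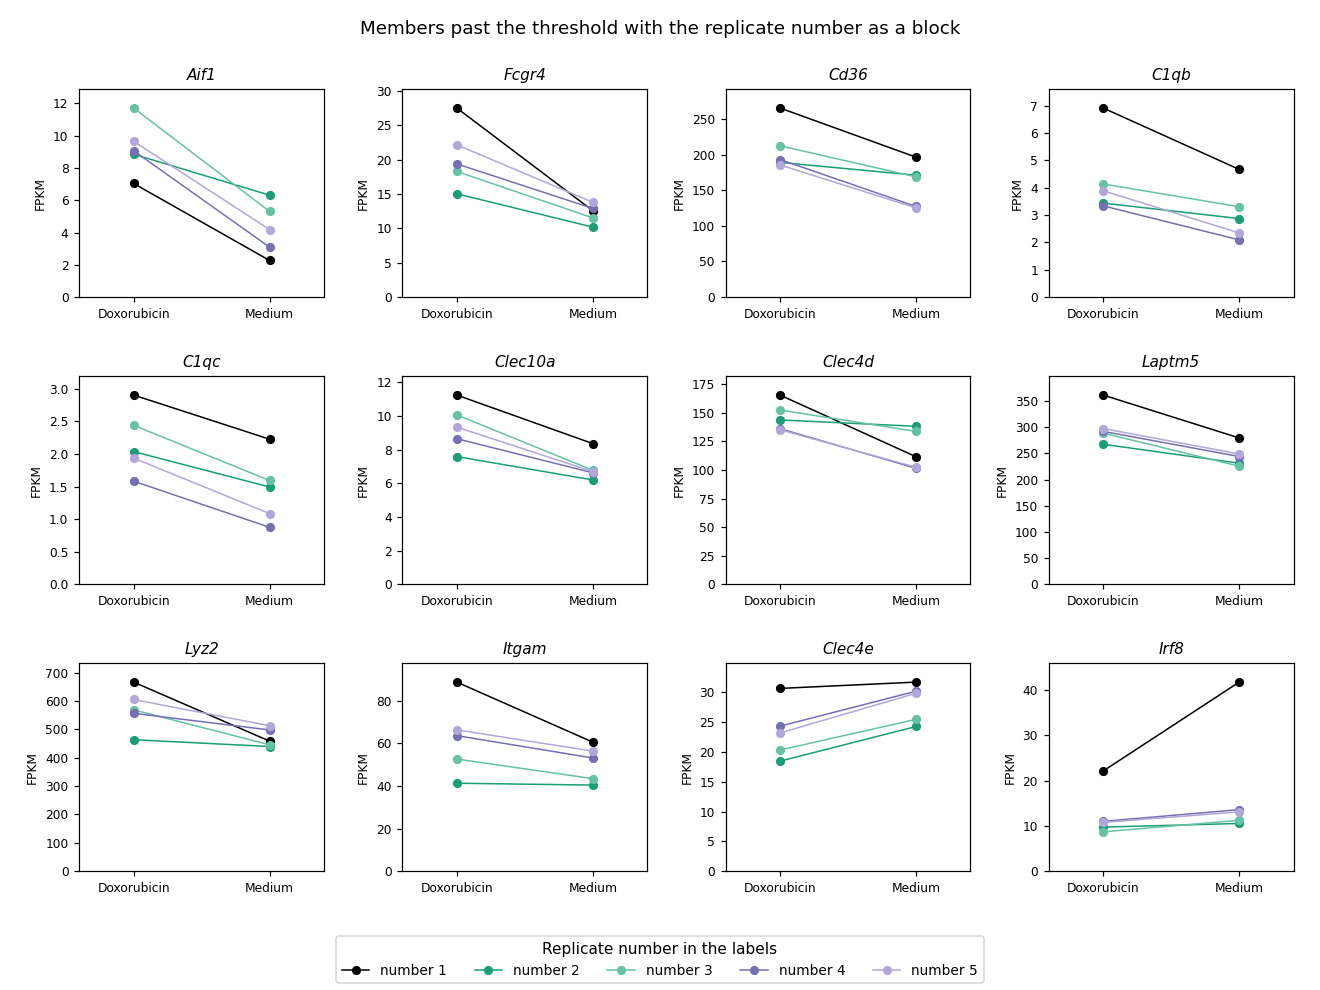
FPKM of the 12 members past the threshold with the replicate block, with doxorubicin on the left and medium on the right, lines joining libraries of equal number. The lines of 10 genes run down from doxorubicin to medium in all 5 numbers and those of Clec4e and Irf8 run up. Number 1 (black) is the highest library of both groups for Irf8, Itgam, Cd36, C1qb, C1qc, Laptm5, Clec10a and Clec4e.

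How far the number 1 libraries lay from the others is given here as a description. Over the 37 members tested, the median absolute distance of the number 1 library from the mean of numbers 2 to 5 was 0.34 on the log2(FPKM + 1) scale with doxorubicin and 0.32 in medium, against 0.19 and 0.30 over all genes tested. Irf8 was the 1 member at least 2-fold above in both groups, by 1.07 with doxorubicin and 1.71 in medium, as were 0.912% of all genes. Itgb2 (0.74 and 0.63) and C1qb (0.76 and 0.65) were also at least 1.5-fold above in both groups, as were 3.76% of all genes. Itga4 (-0.83 and -1.23) was at least 1.5-fold below, as were 1.88% of all genes. Spi1 (-0.34 and -0.69) and C3ar1 (-0.57 and -0.99) lay below, more so in medium. Fcgr4 (0.54 and 0.058) and C5ar1 (0.87 and -0.17) stood apart with doxorubicin more than in medium. What sets number 1 apart is not given in the labels.

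**Figure D4:**
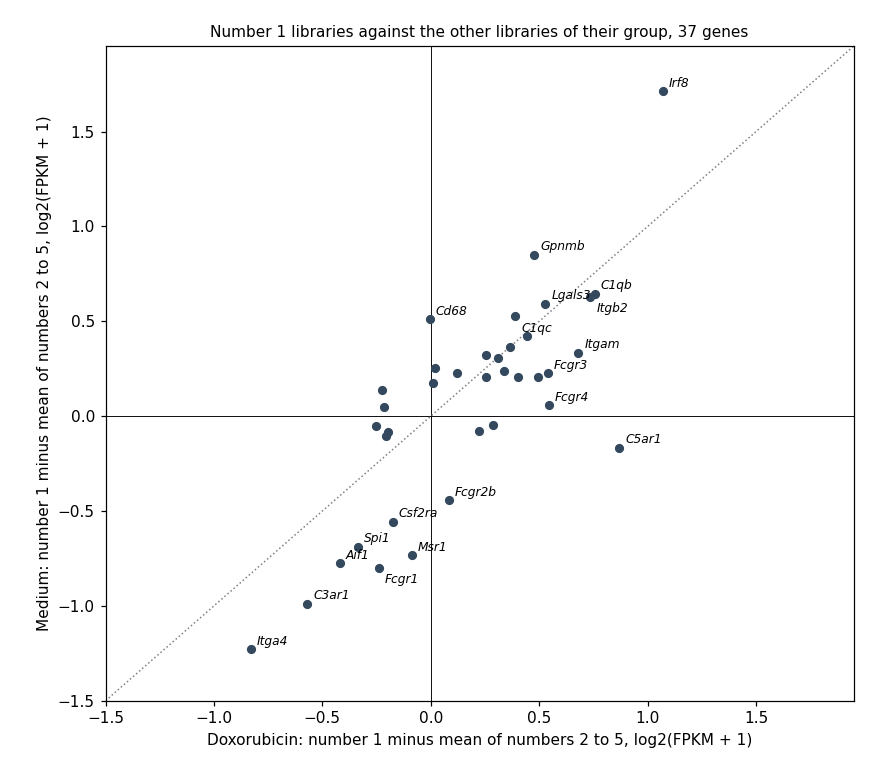
For each of the 37 members tested, the number 1 library minus the mean of numbers 2 to 5 on the log2(FPKM + 1) scale, for doxorubicin (horizontal) and medium (vertical), 1 point per gene. The dotted line marks equal distance in both groups. Irf8 lies at the upper right and Itga4 at the lower left.

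The treatment difference also varied with the number. The members' median within-number difference was 0.29, 0.042, 0.15, 0.076 and 0.11 for numbers 1 to 5, against 0.015, -0.073, 0.0041, -0.033 and -0.034 over all genes tested. The members' median was above that of all genes in each number, with the widest gap in number 1.

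Other genes of the same pathways were called in both directions. In 9 lists with 110 tested genes, 0 passed without the block, and with it 16 were higher and 19 lower (14.5% and 17.3%, against 7.81% and 13.7% of all genes), with a median log2 fold change of -0.035. In a list of other adaptor and signalling genes set beside the Fc receptor group, 1 of 18 tested was higher with the block and 7 were lower (median -0.10). These included Ptpn6, the SHP-1 phosphatase gene, at 197 ± 28.4 FPKM with doxorubicin and 236 ± 23.8 FPKM in medium (SD, n = 5 each; log2 fold change -0.27, adjusted p = 0.253 without and 0.00714 with the block), and Hcst, the DAP10 adaptor gene (log2 fold change -0.47, adjusted p = 0.00631 with the block). Of 17 other myeloid transcription factor genes, 1 was higher and 3 lower with the block (median -0.13), among them Cebpb at 77.4 ± 18.9 FPKM with doxorubicin and 94.7 ± 22.1 FPKM in medium (SD, n = 5 each; log2 fold change -0.29, adjusted p = 0.0176 with the block) and Ikzf1, the Ikaros gene (log2 fold change -0.22, adjusted p = 0.0244 with the block). Of 10 genes of colony-stimulating factor signalling, Csf2rb2 was higher (log2 fold change 0.26, adjusted p = 0.0247 with the block) and Csf3r, the G-CSF receptor gene, lower (log2 fold change -0.40, adjusted p = 0.0100 with the block). Of 6 phagocyte oxidase genes Ncf4 was lower (log2 fold change -0.18, adjusted p = 0.0455 with the block), and of 4 further complement genes C3 was lower (log2 fold change -0.22, adjusted p = 0.0483 with the block).

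Among 14 further scavenger and clearance genes, 4 were higher and 2 lower with the block. Pros1, the gene of protein S, a ligand of the TAM receptor kinases that include Mertk and Axl, was at 4.34 ± 0.196 FPKM with doxorubicin and 2.46 ± 0.702 FPKM in medium (SD, n = 5 each; log2 fold change 0.65, adjusted p = 0.0510 without and 0.00931 with the block). Itgav, the integrin alpha V gene, was at 28.8 ± 3.22 FPKM with doxorubicin and 22.2 ± 2.29 FPKM in medium (SD, n = 5 each; log2 fold change 0.36, adjusted p = 0.00229 with the block). Among 12 further lectin genes 4 were higher and 0 lower with the block, including Clec4a2 (log2 fold change 0.70, adjusted p = 0.00975 with the block) and the galectin-1 gene Lgals1 (log2 fold change 0.27, adjusted p = 0.00392 with the block). Among 18 other myeloid surface genes 4 were higher and 2 lower, including Ms4a7 (log2 fold change 0.51, adjusted p = 0.00332 with the block) and Lilrb4a (log2 fold change -0.36, adjusted p = 0.00525 with the block). Among 11 further integrin and adhesion genes 1 was higher and 2 lower, Selplg, the P-selectin ligand gene (log2 fold change 0.34, adjusted p = 0.00918 with the block), against Cd47, the ligand of Sirpa (log2 fold change -0.35, adjusted p = 0.0218 with the block), and the integrin gene Itgal (log2 fold change -0.34, adjusted p = 0.0470 with the block).

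Most markers of other cell types averaged below 1 FPKM. Of 7 dendritic cell, 6 mast cell and basophil, 6 fibroblast, 5 epithelial and 8 resident macrophage markers, 0 averaged 1 FPKM, and the neutrophil list (10 genes, S100a8 alone above 1 FPKM, 3 at 0 in every library) summed to 1.05 to 1.62 FPKM with doxorubicin and 0.778 to 1.84 FPKM in medium. The lymphocyte genes above 1 FPKM were Il7r (14.8 ± 4.77 FPKM with doxorubicin and 15.0 ± 11.2 FPKM in medium) and Cd79b (6.04 ± 3.28 FPKM with doxorubicin and 5.05 ± 2.22 FPKM in medium; SD, n = 5 each), while Cd3e, Cd3g, Cd8a and Blk were at 0 in every library. Vwf, a gene of endothelium and platelets, was at 3.02 ± 1.20 FPKM with doxorubicin and 1.69 ± 0.303 FPKM in medium (SD, n = 5 each; log2 fold change 0.54, adjusted p = 0.00952 with the block). Its 4 companions on the endothelial list averaged below 1 FPKM, with Emcn at 0 in every library, and the list summed to 1.94 to 5.17 FPKM with doxorubicin and 1.35 to 1.99 FPKM in medium. Of 7 red cell and platelet markers Pf4 alone was above 1 FPKM, at 3.43 ± 0.729 FPKM with doxorubicin and 2.17 ± 0.567 FPKM in medium (SD, n = 5 each; log2 fold change 0.49, adjusted p = 0.0614 with the block). That list summed to 2.98 to 4.94 FPKM with doxorubicin and 1.68 to 2.91 FPKM in medium. Their part in the results was not tested.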

How the data were processed

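RNA of 10 libraries of RAW264.7 cells, 5 with doxorubicin and 5 in medium, was enriched on oligo(dT) beads and sequenced, per the labels' protocols. The authors deposited FPKM values, 1 column per library, for 22186 genes named by symbol. GRCm39 is the build that the submitters' processing notes name. The aligner, the quantification program and the annotation are not given in the sources used here. Low values showed no whole-read steps (within 0.05 of a whole number, at best 14.5% to 20.0% of 200 low values per library fell on 1 step size), so depth is unknown and no counting interval is given.

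Values were analysed as log2(FPKM + 1), a scale that understates changes near 1 FPKM. The 9869 genes averaging 1 FPKM or more were tested together with limma 3.58.1 in R 4.3.3 (group as the only term, mean-variance trend, Benjamini-Hochberg adjustment), and tables were handled in Python 3.11.15. The fit without the block was tried on simulated data with known changes and independent noise in each library. Those data held no deviations shared by number, and the block fit was not tried in this way. Deviations of equal-numbered libraries from their group means correlated at 0.794, 0.700, 0.667, 0.524 and 0.547 for numbers 1 to 5, so the number was used as a block in a second fit. Unequal numbers came close, with doxorubicin 3 and medium 2 at 0.692 and doxorubicin 2 and medium 3 at 0.589. Doxorubicin 4 and medium 5 were at 0.509, and doxorubicin 5 and medium 4 at 0.512. Within 2 with 3 and 4 with 5, these values therefore do not clearly single out pairs of equal number. No 2 libraries were identical.

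The members, their roles and the other lists were chosen with earlier results of these data known, so no p-value over the list is given. Values by library are given for members past the threshold in either fit and, per role, for the highest member and the one with the smallest p. Non-members are named by smallest blocked p, up to 2 per list, and markers of other cells where they averaged 1 FPKM or more. Itgal was named after its values were seen. Promoter windows came from RefSeq (34 of 45 members), matched by symbol. Alternatives were pseudocount, filter, scaling, block, library weights, an exact permutation test and libraries left out.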

Additional observations from a re-analysis of the deposited data

Results flagged for a closer look

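In 18 of the 90 sets of 5 libraries (45 members in each group), 1 library lay apart from the other 4 by more than 0.71 of the whole range, and it was the number 1 library each time. The share of all genes flagged by this rule is not given here. Number 1 also stood apart over all genes tested, by a median of 0.19 with doxorubicin and 0.30 in medium on the log2(FPKM + 1) scale. Over the members tested these distances were 0.34 and 0.32. That cutoff flags about 1 in 20 sets of independent, normally distributed values. The sets of a group all share the same 5 libraries, so this rate does not hold for the count given here. The 14 members concerned included 4 with both groups affected, Irf8, Lgals3, Mertk and Itga4. In doxorubicin 1 the FPKM lay above the other libraries for Irf8 (22.1, nearest 11.0), Lgals3 (918, nearest 667), C1qb (6.92, nearest 4.14), C5ar1 (17.0, nearest 10.1), Mrc1 (0.529, nearest 0.344), Mertk (0.614, nearest 0.278) and Axl (0.229, nearest 0.0755), and below them for Itga4 (10.9, nearest 19.1). In medium 1 it lay above them for Irf8 (41.8, nearest 13.6), Cd68 (609, nearest 448), Lgals3 (882, nearest 621), Gpnmb (2160.0, nearest 1333), Mertk (0.628, nearest 0.278), Clec10a (8.36, nearest 6.78) and Itgb2 (97.9, nearest 65.9), and below them for Spi1 (106, nearest 166), C3ar1 (34.6, nearest 68.8) and Itga4 (8.39, nearest 19.7). Mrc1, Mertk and Axl were below 1 FPKM and were not tested.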

How the results depend on the processing

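The number of genes past the threshold was 90 (68 higher, 22 lower) as reported, 2127 (771 higher, 1356 lower) with the replicate block, 3168 (1205 higher, 1963 lower) with the block of 3 sets, 556 (283 higher, 273 lower) without both number 1 libraries, 2827 (1010 higher, 1817 lower) with the replicate block as well, 3681 (1379 higher, 2302 lower) with library weights, 57 (40 higher, 17 lower) with a filter at 5 FPKM, which tests fewer genes, and 0 by the exact permutation test. The number of members past it was 0 as reported and in the same order 12, 19, 4, 18 and 15 (12 higher and 3 lower with the weights, 10 of the 12 blocked calls among them, without Irf8 and Itgam), and 1 (Fcgr4) when libraries were rescaled to the same sum and 2 (Fcgr4 and Aif1) with median-centred libraries. Leaving out 1 library at a time gave 15 to 226 genes, 0 to 3 members, and members' medians of 0.082 to 0.14. Among the 12 blocked calls, leaving out 1 library moved Irf8, Itgam and C1qb by over 1.5 times (-0.59 to -0.032, 0.13 to 0.40 and 0.24 to 0.52). The members' median kept its sign under each setting. All 12 blocked calls kept their sign wherever they were tested. Members with small differences changed sign: Spi1 -0.021, Maf 0.12, Csf1r 0.0020, Csf2ra -0.0052, C5ar1 -0.041, Clec7a -0.026 and Itga4 -0.13 with library weights, Spi1 -0.011, Csf1r 0.045, Fcgr1 -0.035, Fcgr3 -0.028, C5ar1 -0.15 and Itga4 -0.053 without both number 1 libraries (equal with and without the replicate block), Maf 0.021, Csf1r 0.045 and C3ar1 0.037 with median-centred libraries and Cd68 -0.0029 when rescaled. With 1 library left out the signs of the following crossed 0, over these ranges: Spi1 -0.078 to 0.13, Maf -0.10 to 0.048, Csf1r -0.032 to 0.049, Csf2ra -0.011 to 0.15, Cd68 -0.028 to 0.11, Fcgr1 -0.083 to 0.15, Fcgr2b -0.17 to 0.067, Fcgr3 -0.073 to 0.24, C3ar1 -0.21 to 0.11, C5ar1 -0.12 to 0.13, Msr1 -0.010 to 0.21, Clec7a -0.048 to 0.086, Itga4 -0.22 to 0.19. The cause was not tested. Unknown depth limits the precision of the low genes.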

Other observations

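The neighbouring lectin genes that moved apart can be read as a ratio of FPKM within a library, which does not depend on the library's scaling. Clec4d over Clec4e was 5.40, 7.79, 7.50, 5.60 and 5.83 in doxorubicin libraries 1 to 5 and 3.52, 5.70, 5.25, 3.36 and 3.43 in medium libraries 1 to 5, higher with doxorubicin within each number. Numbers 2 and 3 had the highest ratios of both groups, so the ranges overlapped. The C1q chain genes that rose together kept a closer ratio, with C1qb over C1qc at 2.38, 1.69, 1.70, 2.11 and 2.01 with doxorubicin and 2.10, 1.93, 2.08, 2.40 and 2.17 in medium. It was lower with doxorubicin in numbers 2 to 5 and higher in number 1. For the chains of complement receptor 3, Itgam over Itgb2 was 0.759, 0.698, 0.719, 0.880 and 0.873 with doxorubicin and 0.619, 0.668, 0.696, 0.836 and 0.855 in medium, higher with doxorubicin within each number. The pairs were picked with their values known, and the ratios were not tested.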
